A study of Drosophila melanogaster with 6 samples.

Results

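U1 is the small nuclear RNA (snRNA) that starts splicing: as part of the U1 ribonucleoprotein particle it base-pairs with the 5′ splice site of an intron, before the U2 particle binds the branch point and the U4/U6.U5 particles join. U1, U2, U4 and U5 are made by RNA polymerase II, whereas U6 is made by RNA polymerase III (Pol III), so U1 is a spliceosomal RNA that the mutated polymerase of this study does not transcribe. Like other spliceosomal RNAs, U1 comes from several gene copies in the fly, and copies of slightly different sequence are called variants.

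The U1 transcripts were the rows of the table whose gene name in the Ensembl annotation of the fly genome (BDGP6) begins with snRNA:U1:. The table listed 527 transcripts that matched the annotation and 4 that did not, and 3 of them were U1, namely snRNA:U1:95Cb, snRNA:U1:82Eb and snRNA:U1:95Cc. The annotation holds 5 U1 genes. The other two, snRNA:U1:21D and snRNA:U1:95Ca, have no row of their own and were not analysed here.

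Short RNAs were sequenced from midguts of female flies at 1 week of age, in 6 libraries. The 3 Polr3D mutant libraries came from flies with the genotype label dC53EY22749, a P-element insertion in 1 copy of Polr3D (formerly dC53), which encodes a subunit found only in Pol III. The 3 wild-type libraries came from White Dahomey, an outbred stock. Per the methods, the insertion was crossed repeatedly into the Dahomey stock marked with w1118 or v1, and the background was free of Wolbachia. Homozygotes are not viable, and the heterozygous insertion is carried by every cell and not only by the gut. Neither Polr3D mRNA nor midgut marker mRNAs are among these short transcripts, so genotype and tissue rest on the labels. Counts over the table totalled 13465392 to 16891428 per library. Nothing in the labels says which flies made up each library, so the p values below measure only the spread between these libraries, which may be partly technical.

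The U1 genes lie in 3 places (BDGP6, coordinates from 1), and each annotated copy is a gene of 1 exon and 164 bases. snRNA:U1:95Cb (FBtr0084488, FBgn0004186) lies on chromosome 3R from 23827870 to 23828033, plus strand. snRNA:U1:95Cc (FBtr0084487, FBgn0004187) lies on 3R from 23826334 to 23826497, also on the plus strand, and 1372 bases separate it from 95Cb. Both sit inside an intron of the protein-coding gene CG34355 and on the strand of that gene, so RNA of the unspliced host could not be told apart from them by position. snRNA:U1:82Eb (FBtr0078851, FBgn0004183) lies far away on 3R, from 4947933 to 4948096 on the minus strand, and overlaps no other annotated gene. Of the unlisted copies, snRNA:U1:95Ca lies 31433 bases beyond 95Cb on the minus strand, outside CG34355, and snRNA:U1:21D lies on 2L from 901491 to 901654, minus strand. RefSeq lists variant names among the synonyms of these genes: U1a for 21D, 82Eb, 95Ca and 95Cb, and U1c for 95Cc only.

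Nearly all U1 counts fell on a single row. snRNA:U1:95Cb held 76386, 78951 and 73493 estimated counts in mutant replicates 1, 2 and 3, against 95605, 91705 and 105038 in the wild type, also in replicate order. snRNA:U1:82Eb held 191, 301 and 246 counts in the mutant, against 332, 251 and 326 in the wild type. snRNA:U1:95Cc held 24, 117 and 90 counts in the mutant, against 191, 38 and 302 in the wild type. By mean level 95Cb ranked 19 among all listed transcripts, 82Eb ranked 295 and 95Cc ranked 337.

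The order of the copies was the same in all 6 libraries. The 3 transcripts have the same length, so their counts can be set against each other directly. Counts of 95Cb were 262 to 400 times those of 82Eb, higher in 6 of 6 libraries. Counts of 82Eb were 1.08 to 7.96 times those of 95Cc, also higher in 6 of 6 libraries. The order was read from these same counts, so no p value is given for it. In wild-type replicate 3 the lower copies were not told apart, since the exact Poisson intervals of their counts overlapped, 292 to 363 for 82Eb and 269 to 338 for 95Cc. Salmon, which the authors used, shares out a read with several matches by estimation, and by default it indexes transcripts of identical sequence once. The row of 95Cb can therefore hold reads of copies that have no row, and the split among the listed copies is uncertain; neither was tested.

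**Figure D1:**
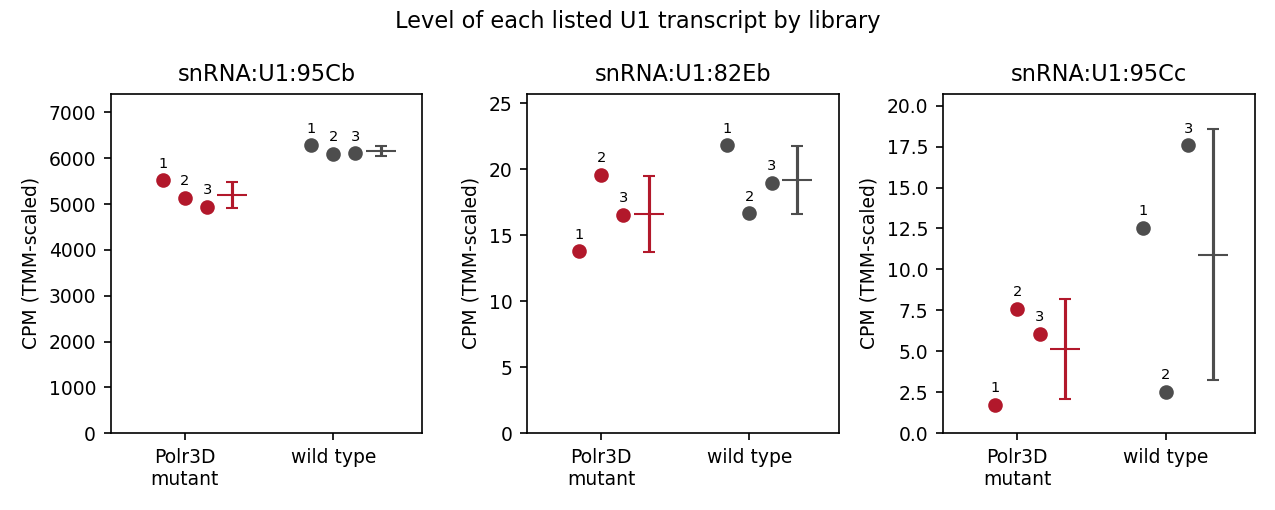
Level of each listed U1 transcript in counts per 1000000 after TMM scaling (CPM, vertical axes from 0, with a different range in each panel), for the 3 Polr3D mutant libraries (red) and the 3 wild-type libraries (grey); numbers are replicate numbers, and the bar beside the points is the mean with its SD. The mutant libraries lie below the wild-type libraries for 95Cb, from 4947 to 5516 CPM against 6094 to 6283 CPM, while the groups overlap for 82Eb and 95Cc.

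Whether the mutation shifts the split of U1 counts among the 3 listed rows was asked first, since usage within U1 needs no scaling of libraries. Usage of the listed rows did not differ detectably. Reads of unlisted copies can sit in a listed row, so a shift that involves those copies was not tested. snRNA:U1:95Cb took 99.7%, 99.5% and 99.5% of the U1 counts in mutant replicates 1, 2 and 3, against 99.5%, 99.7% and 99.4% in the wild type. The mean was 99.6% ± 0.127 in the mutant, against 99.5% ± 0.149 in the wild type (SD, n = 3 each), a difference of 0.0634 percentage points (exact permutation test, two-sided, p = 0.5). The direction of that difference turned without mutant replicate 1, to -0.0067 percentage points.

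snRNA:U1:82Eb took 0.249%, 0.379% and 0.333% of the U1 counts in the mutant, against 0.345%, 0.273% and 0.309% in the wild type. The wild-type values lay within the mutant range, with a difference of 0.0117 percentage points (exact permutation test, p = 0.8), which was -0.0176 without mutant replicate 2 and -0.0064 without wild-type replicate 2. snRNA:U1:95Cc took 0.0313%, 0.147% and 0.122% in the mutant, against 0.199%, 0.0413% and 0.286% in the wild type. Mutant replicate 1 and wild-type replicate 2 were low and wild-type replicate 3 was the highest, so the spread lay mostly within the genotypes. The difference was -0.0751 percentage points (exact permutation test, p = 0.4), and it was -0.0198 without wild-type replicate 3, -0.0406 without mutant replicate 1 and -0.142 without wild-type replicate 2. Adjusted over the 3 transcripts, the p values were 0.75 for 95Cb, 0.8 for 82Eb and 0.75 for 95Cc, in a design of 3 libraries against 3 that cannot go below 0.1.

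The spread between libraries was wider than counting error. The half-width of the 95% Wilson interval of a usage value in 1 library was at most 0.0504 percentage points for 95Cb, 0.0428 for 82Eb and 0.0322 for 95Cc. For 95Cc the intervals in mutant replicate 1 (0.0211% to 0.0466%) and mutant replicate 2 (0.123% to 0.177%) lay apart, so libraries of 1 genotype differed by more than counting error. Sampling of reads is all that these intervals describe: the counts are estimates, and reads copied by PCR do not stand for separate molecules.

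**Figure D2:**
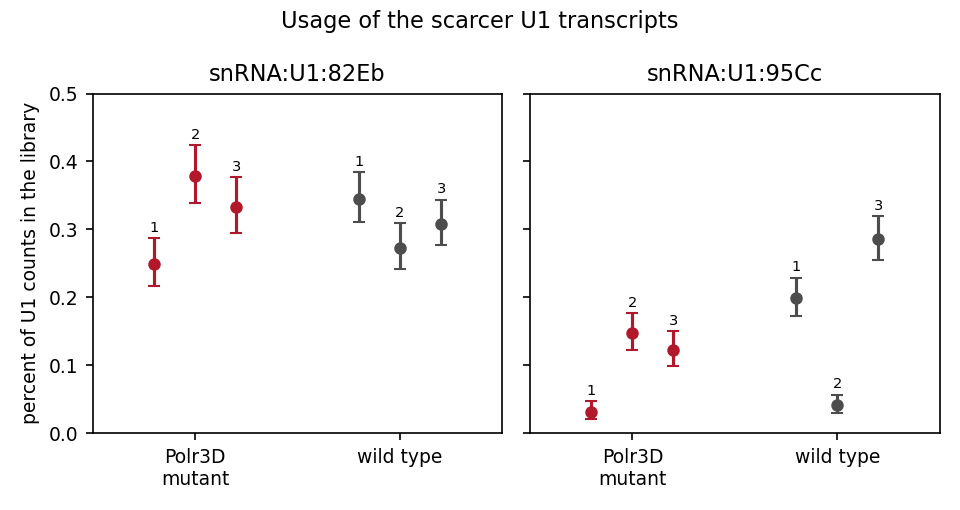
Percent of the U1 counts of each library taken by snRNA:U1:82Eb and snRNA:U1:95Cc, in Polr3D mutant (red) and wild-type (grey) libraries; bars are 95% Wilson intervals and numbers are replicate numbers. The 82Eb points lie between 0.249% and 0.379% in both genotypes, and the 95Cc points spread from 0.0313% to 0.286% with overlapping genotypes.

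The level of U1 was then compared between the genotypes in a fit across all transcripts. All 3 U1 transcripts had lower fitted values in the mutant, as did 228 of all 411 tested transcripts, with 183 higher. None of the 3 passed the threshold, a Benjamini-Hochberg adjusted p of 0.10 in edgeR's quasi-likelihood test on 411 transcripts. In that test 1.22% of all transcripts passed in either direction and 0.0% passed as lower in the mutant. That split was not stable, since 8 were called higher and 8 lower with total counts, and 27 higher and 20 lower without mutant replicate 3. At an unadjusted p below 0.05, 5.35% were lower and 14.8% were different in either direction, and DESeq2 called 4 as lower. No U1 transcript had an unadjusted p below 0.05 in this edgeR fit or in DESeq2. DESeq2 called none of the 3, where it called 7.21% of the transcripts it tested.

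snRNA:U1:95Cb stood at 5516, 5134 and 4947 CPM in mutant replicates 1, 2 and 3, against 6283, 6094 and 6114 CPM in the wild type. Every mutant library lay below every wild-type library, which was also true of 10.7% of the 411 transcripts. The means were 5199 ± 290 CPM (SD, n = 3) in the mutant and 6163 ± 104 CPM (SD, n = 3) in the wild type. The fitted difference was -0.25 on the log2 scale (SE 0.14, edgeR adjusted p = 0.416). The 95% interval ran from -0.55 to 0.061, that is from 0.682 to 1.04 times the wild-type level, so neither an unchanged level nor one at 0.682 times the wild type lies outside it. The log2 fold change of 95Cb ranked 89 from the lowest among the 411.

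snRNA:U1:82Eb stood at 13.8, 19.6 and 16.6 CPM in the mutant, against 21.8, 16.7 and 19.0 CPM in the wild type. The genotypes overlapped (log2 fold change -0.20, SE 0.19, 95% interval -0.63 to 0.23, edgeR adjusted p = 0.602). That value was -0.086 without mutant replicate 1, -0.099 without wild-type replicate 1 and -0.31 without mutant replicate 2. snRNA:U1:95Cc stood at 1.73, 7.61 and 6.06 CPM in the mutant, against 12.6, 2.53 and 17.6 CPM in the wild type. Its counts differed by up to 4.88 times among mutant libraries and 7.95 times among wild-type libraries. The fitted log2 fold change of -1.08 was the second lowest of the 411, yet its standard error was 0.66 and its 95% interval ran from -2.57 to 0.41 (edgeR adjusted p = 0.440). It was -0.55 without wild-type replicate 3, -0.66 without mutant replicate 1 and -1.55 without wild-type replicate 2, and it passed the threshold in none of these.

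A sum over the listed copies does not depend on how reads were divided among them. Summed U1 stood at 5527, 5158 and 4966 CPM in the mutant, against 6340, 6110 and 6146 CPM in the wild type. All mutant libraries were lower, and the log2 fold change of -0.25 (SE 0.14, 95% interval -0.56 to 0.059, edgeR adjusted p = 0.405) did not pass. As a share of all counts, U1 took 0.536%, 0.470% and 0.472% in the mutant, against 0.714%, 0.632% and 0.628% in the wild type. Those groups did not overlap either (difference -0.165 percentage points, exact permutation test, two-sided p = 0.1, the smallest possible here). Of the 411 tested transcripts, 28.2% had all mutant libraries lower by this measure. In RNA of dissected midguts, fewer cells of a U1-rich type and less U1 per cell cannot be told apart.

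The size of the difference moved with the scaling. With the U1 copies summed to 1 row, the median log2 fold change of all tested rows was -0.053 under TMM, -0.22 with total counts alone, -0.24 with scaling on mitochondrial tRNAs and 0.050 with scaling on snoRNAs. Summed U1 had -0.25, -0.42, -0.43 and -0.15 under the same scalings. A scaling shifts all rows together, so the distance of summed U1 from the median, -0.20 under TMM, is nearly fixed across scalings. That distance was -0.26 without wild-type replicate 3 and -0.17 without mutant replicate 3. The small nucleolar RNAs (snoRNAs), which mostly come from introns of Pol II transcripts and guide the modification of rRNA, had a median of -0.14 under TMM, with 186 of 243 tested lower and 57 higher.

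The other snRNAs did not share a direction. The table listed 22 snRNA transcripts besides U1, of which 18 were tested, and 11 had higher and 7 lower fitted values in the mutant. None was called by edgeR or DESeq2, with 1 at an unadjusted p below 0.05 in each tool. Their median log2 fold change was 0.046, beside -0.25 for the 3 U1 transcripts and -0.052 for all 411 transcripts. In edgeR that 1 was U6atac, the counterpart of U6 in the minor spliceosome, at -0.46 (SE 0.20, edgeR unadjusted p = 0.04995, adjusted p = 0.331). Among the dominant rows of the major spliceosome, snRNA:U2:34ABb had 0.013 (SE 0.14), snRNA:U4:39B had 0.037 (SE 0.14), the leading U5 copy had 0.45 (SE 0.24) and the Pol III product snRNA:U6:96Ab had 0.19 (SE 0.17), with edgeR adjusted p values from 0.407 to 0.964. The list also holds U7, which acts in histone mRNA 3′ end processing and not in splicing, at 0.27 (SE 0.18, edgeR adjusted p = 0.467), and snRNA:LU at -0.0043 (SE 0.25).

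**Figure D3:**
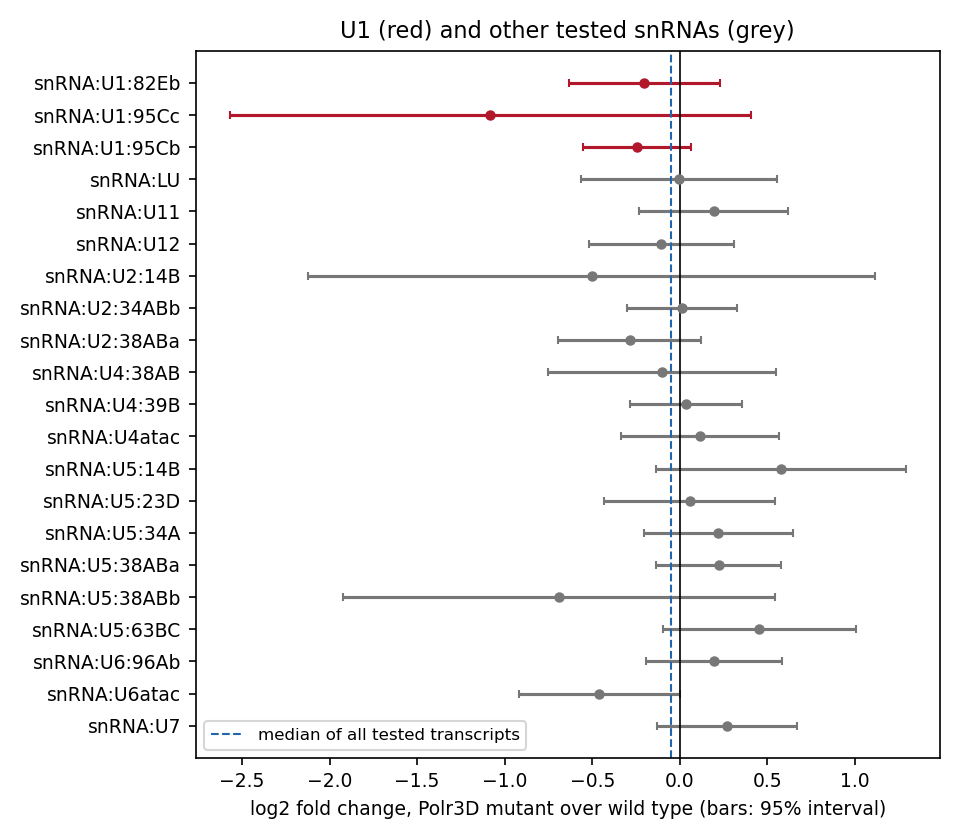
Log2 fold change (Polr3D mutant over wild type, edgeR with TMM scaling, horizontal axis) of the 3 U1 transcripts (red) and the 18 other tested snRNAs (grey), with 95% intervals; the dashed line is the median of all 411 tested transcripts, at -0.052. All 3 U1 points lie left of that line, the intervals of all 3 include 0, and 95Cc has by far the widest interval of the U1 transcripts.

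U1 was also set against the RNAs it works with. The ratio of 2 RNAs in 1 library needs no scaling factor, and counts were divided by transcript length before ratios were taken. U1 to U2 was 1.46, 1.35 and 1.55 on the log2 scale in mutant replicates 1, 2 and 3, against 1.66, 1.77 and 1.68 in the wild type. All mutant libraries were lower, with a difference of -0.25 (exact permutation test, p = 0.1). In linear terms the geometric mean was 2.74 U1 counts per base for each of U2 in mutant libraries and 3.25 in wild-type libraries. U1 to U4 was 2.80, 2.76 and 3.02 in the mutant, against 3.12, 3.22 and 3.08 in the wild type. These ratios did not overlap either, with a difference of -0.27 (exact permutation test, p = 0.1). The geometric means were 7.27 in mutant libraries and 8.79 in wild-type libraries. Summed U2 averaged 11650 CPM per kilobase over mutant libraries, against 11630 over wild-type libraries, and summed U4 averaged 4403 against 4299. Both ratios have U1 as numerator, so their separation is no result apart from the lower summed U1. How often other transcripts separate the genotypes as a ratio to U2 or U4 was not tested.

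For U5 and U6 the ratios overlapped. U1 to U5 was -0.12, -0.29 and 0.41 on the log2 scale in the mutant, against 0.85, 0.74 and 0.31 in the wild type, a difference of -0.63 (exact permutation test, p = 0.2). The summed level of U5 varied the most in SD among these 5 families, and per kilobase it was 36550, 38360 and 22830 CPM in the mutant, against 21330, 22270 and 30150 CPM in the wild type. U1 on that scale was steadier, at 33730, 31470 and 30300 CPM in the mutant, against 38520, 37270 and 37500 CPM in the wild type. U1 to U6 was 3.57, 3.32 and 3.87 in the mutant, against 4.16, 4.06 and 3.82 in the wild type, a difference of -0.43 (exact permutation test, p = 0.2). Adjusted over the 4 ratios, p was 0.2 for each. Ratios across RNAs of different length and structure also carry the recovery of each RNA by size selection and library preparation, which was not tested.

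**Figure D4:**
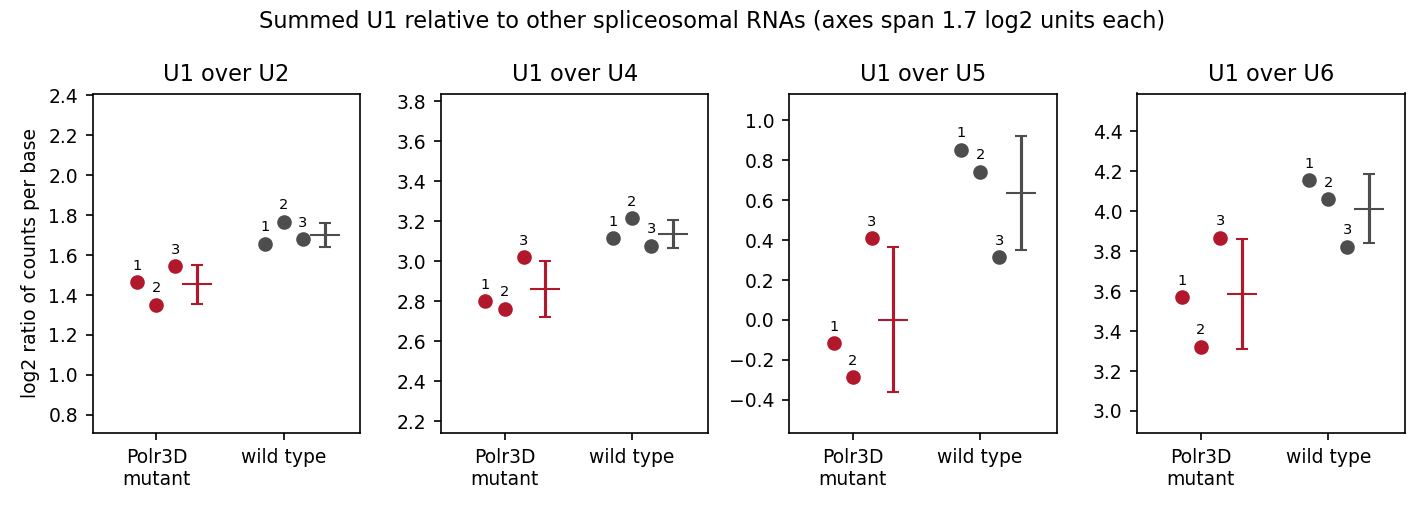
Log2 ratio of summed U1 counts per base to summed U2, U4, U5 and U6 counts per base in each library (vertical axes span the same number of log2 units but start at different values), with Polr3D mutant in red and wild type in grey; numbers are replicate numbers, and the bar beside the points is the mean with its SD. The genotypes are apart for U2 and U4 and overlap for U5 and U6, where mutant replicate 3 lies among the wild-type values.

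Dominance by 1 row was stronger for U1 than for the other families with several rows. The leading row took 99.4% to 99.7% of the U1 counts per library, against 95.8% to 97.5% for U2 (snRNA:U2:34ABb, 5 rows), 97.6% to 98.7% for U4 (snRNA:U4:39B, 3 rows) and 78.5% to 87.3% for U5 (7 rows). U1 was higher in 6 of 6 libraries against each, by 2.81 points over U2, 1.38 over U4 and 17.4 over U5. The leading rows were picked from these same counts, so no p value is given. Whether the number of rows or of identical unlisted copies sets these shares was not tested.

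Guide RNAs named for U1 were looked up as well, after the values above were known. scaRNA:PsiU1-6 is named for pseudouridylation at position 6 of U1, which lies in the 5′ end that pairs with the splice site. It held 330, 354 and 316 counts in mutant replicates 1, 2 and 3, against 333, 355 and 354 in the wild type, and the genotypes overlapped (log2 fold change 0.044, SE 0.15, 95% interval -0.29 to 0.38, edgeR adjusted p = 0.890). It was the only listed transcript named as a guide for U1.

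Of the 327 transcripts outside U1 with a mean of at least 10 CPM, the 3 whose profiles over the 6 libraries were nearest to summed U1 were snoRNA:Psi18S-1347c, snoRNA:Psi18S-1347b and scaRNA:PsiU2-38.40.42. Likeness was the root mean square difference of log2 CPM after each profile was centred on its mean, at 0.0323, 0.0527 and 0.0531, beside a median of 0.236 over all candidates. snoRNA:Psi18S-1347c, named for a pseudouridine of 18S rRNA, stood at 125, 110 and 113 CPM in mutant replicates 1, 2 and 3, against 141, 132 and 134 CPM in the wild type. As in summed U1, all its mutant libraries were lower, and mutant replicate 1 was the highest of them. It was picked for this likeness, so the shared pattern is no separate result. All mutant libraries were lower in 10.7% of the 411 tested transcripts.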

How the data were processed

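Short RNAs of 6 libraries were quantified. RNAs under 200 nucleotides had been selected and demethylated, per the labels, and libraries were sequenced from both ends. The authors trimmed reads with Cutadapt and quantified them with Salmon on an index of all fly transcripts (BDGP6, release 32). The deposited values are estimated counts of transcripts under 300 bases, given as whole numbers without scaling. Identifiers were matched to BDGP6, release 54 (527 of 531), which is the same assembly. The genotype of each library was taken from its title.

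Counts were fitted in R 4.3.3 with edgeR 4.0.16 (filterByExpr, 411 transcripts kept, the 3 U1 transcripts among them; TMM; glmQLFit and glmQLFTest; genotype only), with p values adjusted over all 411; the standard error was derived from the F statistic. The script was tested on simulated data. Shares and ratios were compared by exact permutation tests, two-sided. Alternatives were DESeq2 1.42.0, no filter on low counts, RLE scaling, total counts, scaling on snoRNAs or mitochondrial tRNAs, the replicate number as a block, and leaving out each library. Every U1 transcript was named; other transcripts were named as families, by likeness to summed U1 (0.5 was added to CPM), or as stated. Members and lists were chosen with earlier results of these data known. Libraries of 1 genotype differed beyond sampling noise in every pair (chi-square of 212 to 1409 for each degree of freedom), so each was counted as 1 sample.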

Additional observations from a re-analysis of the deposited data

How the results depend on the processing

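No U1 transcript, nor their sum, passed the threshold in any of 13 alternatives of the fit. The unadjusted edgeR p of summed U1 was 0.026 with total counts and 0.043 with scaling on mitochondrial tRNAs. For 95Cb the unadjusted edgeR p was 0.026 and 0.044 under the same scalings. For 95Cc it was 0.024 with scaling on mitochondrial tRNAs and 0.017 without wild-type replicate 2. For 82Eb it was below 0.05 in none of the alternatives. The log2 fold change stayed negative for summed U1 (-0.43 to -0.15, edgeR or DESeq2 adjusted p from 0.156 to 0.652), 95Cb (-0.43 to -0.15), 82Eb (-0.40 to -0.086) and 95Cc (-1.55 to -0.55). Leaving out 1 library gave -0.29 to -0.20 for summed U1. Usage, share and ratios could not pass with so few libraries, so only their values are given; the order of copies and the share of the leading row were not recomputed. With 1 library left out, the mutant minus wild-type difference in the log2 ratio of U1 ran from -0.29 to -0.20 for U2 and -0.35 to -0.23 for U4. It ran from -0.84 to -0.49 for U5 and -0.57 to -0.29 for U6. Usage had no stable direction for 2 copies: leaving out 1 library gave -0.0176 to 0.0473 percentage points for 82Eb, -0.0067 to 0.148 for 95Cb and -0.142 to -0.0198 for 95Cc, and it was below 0 without mutant replicate 2 or wild-type replicate 2 for 82Eb and without mutant replicate 1 for 95Cb. With rRNA counts left out of the total, the U1 share was lower by 0.576 percentage points in the mutant. The number of calls over all transcripts, 5 here, was 30 with DESeq2, 16 without the filter, 10 with RLE scaling, 16 with total counts (8 higher and 8 lower in the mutant, against 5 and 0 here), 10 with scaling on snoRNAs, and 0 to 47 without 1 library (47 without mutant replicate 3, 27 higher and 20 lower, 12 without mutant replicate 1, 1 without mutant replicate 2 and 0 without any one wild-type library); the cause was not tested. With the replicate block there were 14 calls, and summed U1 had -0.25 (adjusted p = 0.617). The titles do not say that numbers mark pairs. What was correlated was the deviation of each library from the mean log2 CPM of its genotype, over the tested transcripts. These deviations had correlations of -0.023, -0.26 and -0.20 between same-numbered libraries. By that measure 0 of 6 libraries were closest to their own number.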

Other observations

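The library pattern of snRNA:U1:95Cc was compared with the 394 transcripts outside U1 that averaged at least 1 CPM, a comparison chosen after its values were seen. The nearest profile was that of another scarce snRNA copy, snRNA:U5:38ABb, with 10, 31 and 9 counts in mutant replicates 1, 2 and 3, against 34, 13 and 40 in the wild type. Its root mean square difference from 95Cc on the centred log2 scale was 0.688, beside a median of 1.07 over the candidates, so the match was loose. A further scarce copy, snRNA:U2:14B, also named after its values were seen, held 70, 171 and 29 counts in the mutant, against 168, 25 and 223 in the wild type. In CPM, mutant replicate 2, wild-type replicate 1 and wild-type replicate 3 were the 3 highest libraries for 95Cc, and also for snRNA:U1:82Eb but not for snRNA:U1:95Cb. They were the 3 highest for 7 of the 18 other tested snRNAs (38.9%): U12, LU and 5 copies of U2, U4 and U5 that are not the leading row of their family. Over all 411 tested transcripts the share was 8.52%. The 3 libraries were read from 95Cc itself after its values were seen. Among the 7 are snRNA:U5:38ABb and snRNA:U2:14B, named above for their values, so these shares are a description only. The 3 libraries belong to both genotypes, and no cause of the pattern was tested.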
